A study of Mus musculus with 12 samples.

Results

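The class III receptor tyrosine kinases of the mouse were described here across 3 kinds of sorted bone marrow progenitor. The 5 genes Flt3, Kit, Csf1r, Pdgfra and Pdgfrb were taken by name as the members of the family, out of 38924 gene IDs in the deposited expression table. All 5 were matched by symbol, and 4 of them, all except Pdgfra, reached 1 TPM in at least 4 libraries, the level required for the test across genes. TPM (transcripts per 1000000) is the share of a library's transcripts that a gene holds, per unit of transcript length, so that levels of different genes in a library can be set side by side.

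A class III receptor tyrosine kinase spans the cell membrane once, carries immunoglobulin-like domains outside the cell and a kinase domain interrupted by an insert inside it, and is switched on when a paired ligand brings receptor molecules together. The activated kinase phosphorylates its own tail, which recruits relays of the RAS-MAPK, PI3K-AKT, phospholipase C gamma and STAT5 pathways, while ubiquitin ligases, phosphatases and SOCS-type adaptors end the signal. In bone marrow, FLT3 (also called Flk2) is known for early lymphoid and dendritic cell progenitors, KIT (the receptor of stem cell factor) for stem cells, early progenitors and mast cells, and the CSF1 receptor for monocytes and macrophages. PDGFRA and PDGFRB, the receptors of platelet-derived growth factors, are best known from mesenchymal cells and the cells around blood vessels.

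RNA was sequenced in bulk from progenitors of female C57Bl/6J mice, an inbred strain, with no treatment or introduced allele named for any group. There were 12 libraries: 4 of lymphoid-primed multipotent progenitors (LMPP), 4 of common lymphoid progenitors (CLP) and 4 of granulocyte-monocyte progenitors (GMP), with 2 libraries of each type in batch 1 and 2 in batch 2 as the titles number them. Marrow had been depleted of cells carrying markers of mature T, B, myeloid and red cells. LMPP were sorted as Sca1+ cKit+ CD150- CD34+ Flk2hi, CLP as Sca1lo cKitlo IL7Ra+ Flk2+ and GMP as Sca1- cKit+ CD150- CD34+ FcgR+, each among lineage-negative cells. Flk2 is the product of Flt3 and cKit that of Kit. Levels of these 2 genes between cell types are therefore given as a description, with no test, because the gates chose the cells by their proteins. The age of the mice, the number of cells and whether libraries came from separate mice do not stand in the labels, so p-values measure the spread between these libraries, which may be technical.

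The genes of the other gates followed the labels in all but 1 CLP library. Il7r (the interleukin 7 receptor) lay between 76.64 and 129.77 TPM in CLP and at most at 11.27 TPM in the other libraries. Fcgr3 (an Fc gamma receptor) lay between 130.03 and 179.1 TPM in GMP, against at most 35.12 TPM in LMPP and 34.76 TPM in CLP. Ly6a, which encodes Sca1, lay between 85.99 and 156.1 TPM in LMPP, with CLP between 2.24 and 37.58 TPM, and GMP between 4.86 and 9.86 TPM; its 2.24 TPM in replicate 2 of CLP batch 2, labelled Sca1lo, lay below every GMP library, labelled Sca1-. Each library had 11064 to 12987 genes at 1 TPM or more; read depth is unknown, since the table holds no counts. Replicate 1 of batch 2 stood apart in both LMPP and CLP. Its summed TPM over 8 erythroid markers was 28405.2 in LMPP and 13545.5 in CLP, and over 8 mature neutrophil markers 25973 and 11991.8, against at most 2461.37 and 1952.11 in the other 10 libraries. Results on the receptors are given below with and without this haemoglobin-rich pair where the call depends on it.

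Of the members, 3 lie on chromosome 5 of mm10, the mouse build named in the submitters' processing notes: Pdgfra at chr5:75152292-75198215 and Kit at chr5:75574916-75656722, both on the plus strand, and Flt3 at chr5:147330741-147400489 on the minus strand. They cover the range of the family's levels, from Pdgfra, near 0 in all libraries, to Flt3, the highest. The 150 bases just before the most upstream annotated start of each are shown 5′ to 3′ in the direction of the gene, from the RefSeq promoter table for GRCm38.p6 (the assembly of mm10), so that the stretch next to a highly expressed and a silent member can be compared. Capitals mark matches, on either strand, to GGAA (the core bound by ETS factors such as PU.1) and to GGGCGG (a GC box).
Flt3, chr5:147400490-147400639, minus strand: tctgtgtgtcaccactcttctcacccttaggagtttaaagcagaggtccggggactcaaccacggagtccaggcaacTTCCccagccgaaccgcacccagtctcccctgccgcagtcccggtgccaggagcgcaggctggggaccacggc
Kit, chr5:75574766-75574915, plus strand: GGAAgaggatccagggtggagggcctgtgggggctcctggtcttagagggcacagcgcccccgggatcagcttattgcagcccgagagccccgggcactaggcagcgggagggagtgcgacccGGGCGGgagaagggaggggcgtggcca
Pdgfra, chr5:75152101-75152250, plus strand: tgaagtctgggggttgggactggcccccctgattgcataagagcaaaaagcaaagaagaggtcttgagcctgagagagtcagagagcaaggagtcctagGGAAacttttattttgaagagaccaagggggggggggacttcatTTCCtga
The stretches before Flt3 and Kit were 64% and 70.7% G or C, with 8 and 9 CG pairs, and that before Pdgfra was 50.7% G or C with 0 CG pairs. The median over 27025 promoter stretches of this length was 54%, with quartiles of 46% and 64%. GGAA was matched at 1 place in Flt3, 1 in Kit and 2 in Pdgfra, and 80.8% of all promoters held at least 1 match. GGGCGG was matched at 1 place in Kit alone, against 29.0% of all promoters. The letters GATA (36.1% of all promoters) and CANNTG (47.4%) were not in any of the 3 stretches. No motif searched overlapped another in these sequences, and a match describes letters, not binding.

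Flt3 had the highest mean level of the family in LMPP and in the CLP of batch 1 (in 1 LMPP library Kit was higher), and the level in CLP depended on the batch. Its level in LMPP was 110.04 and 101.58 TPM (batch 1), then 124.02 and 156.00 TPM (batch 2). The CLP libraries of batch 1 held 138.28 and 146.13 TPM, those of batch 2 only 8.91 and 16.98 TPM. In GMP, which are not gated on Flk2, it stood at 3.12, 3.09, 2.80 and 3.67 TPM. All LMPP and all CLP libraries lay above all GMP libraries, while LMPP and CLP overlapped. LMPP had a mean of 122.91 ± 23.9 TPM, CLP one of 77.6 ± 74.8 TPM, and GMP one of 3.17 ± 0.363 TPM (SD, n = 4 each), so LMPP held 38.8 times the level of GMP. On the log2(TPM + 1) scale LMPP differed from CLP by -0.42 within batch 1 and by 3.39 within batch 2, so that the order of these cell types was opposite in the batches. An antisense gene, Gm26597, overlaps Flt3 and reached at most 3.47 TPM; the labels do not say whether counting used the strand, so low Flt3 levels such as those in GMP cannot be separated from reads of that gene.

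Kit ordered the 3 cell types without overlap. LMPP held 114.58, 89.45, 95.00 and 134.20 TPM, GMP 52.66, 53.64, 73.01 and 71.03 TPM, and CLP 15.26, 20.91, 27.61 and 46.71 TPM, in the order batch 1 then batch 2. Every LMPP library lay above every GMP library, and every GMP library above every CLP library. The gates take cKitlo cells for CLP and cKit+ cells for LMPP and GMP. They place CLP lowest and give no order between LMPP and GMP. Means were 108.3 ± 20.4 TPM in LMPP, 62.6 ± 10.9 TPM in GMP and 27.6 ± 13.7 TPM in CLP (SD, n = 4 each), giving a ratio of 1.73 between LMPP and GMP and of 3.92 between LMPP and CLP. In GMP, Kit was thus well expressed where Flt3 was lowest.

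**Figure D1:**
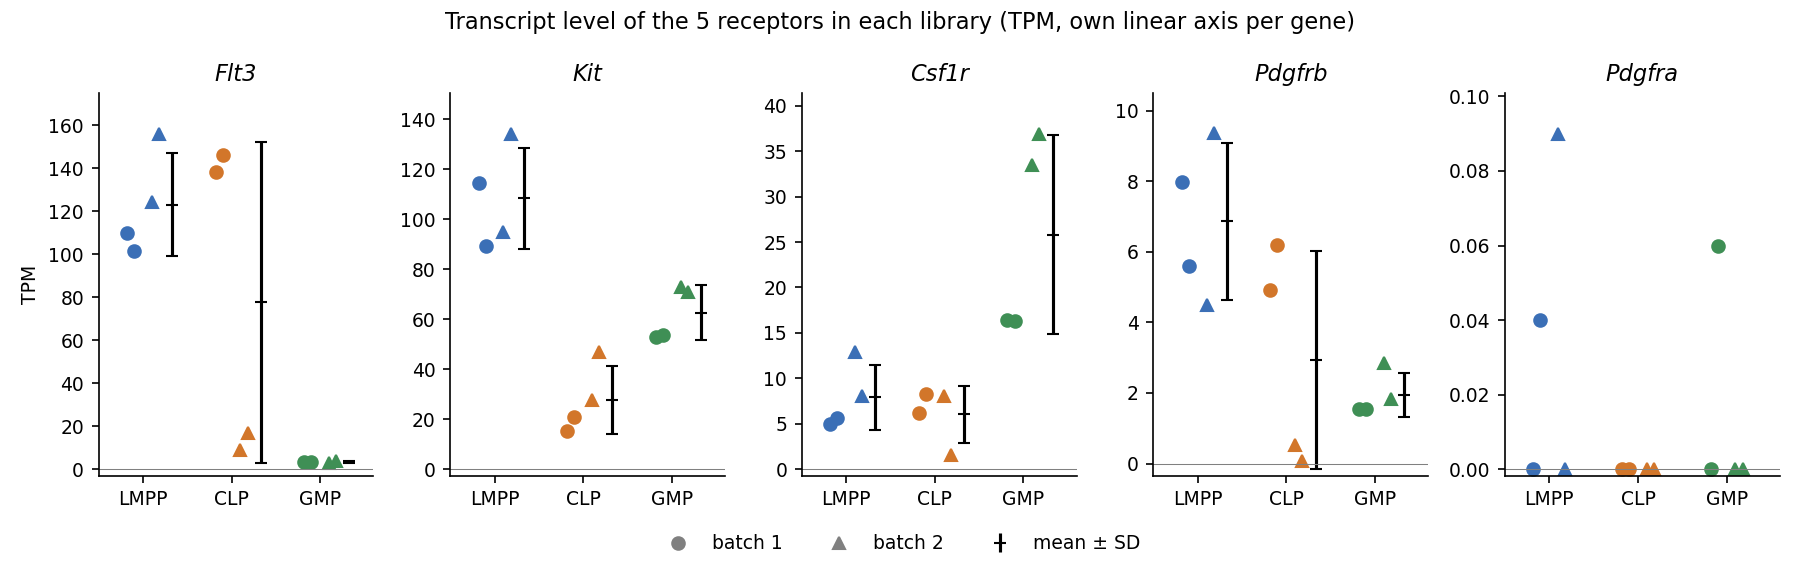
TPM of each receptor in every library, with a linear axis of its own per gene; circles are batch 1, triangles batch 2, and black bars the mean ± SD over 4 libraries of a cell type (not drawn for Pdgfra, which is mostly listed at 0). Flt3 is high in LMPP and in the CLP of batch 1, Kit is highest in LMPP, and Csf1r is highest in GMP.

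Csf1r, the receptor of CSF1 and interleukin 34 and not a gate of any sort, was higher in GMP than in both other cell types. The GMP libraries held 16.42 and 16.33 TPM (batch 1) and 33.46 and 36.93 TPM (batch 2). LMPP held 5.0, 5.64, 12.93 and 8.09 TPM, and CLP 6.15, 8.29, 8.07 and 1.53 TPM, again batch 1 first. The lowest GMP library exceeded the highest LMPP and CLP libraries, while LMPP and CLP overlapped. The mean in GMP (25.8 ± 11.0 TPM, SD, n = 4) was 3.26 times that in LMPP (7.92 ± 3.60 TPM) and 4.29 times that in CLP (6.01 ± 3.14 TPM).

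Differences between cell types were tested with limma on log2(TPM + 1), with cell type and batch in the model and Benjamini-Hochberg adjustment over 12718 genes. Csf1r fell by 2.00 from GMP to CLP on this scale (SE 0.426, adjusted p = 0.00513), lower in 4 of 4 CLP libraries. LMPP differed from GMP by -1.57 (SE 0.426, adjusted p = 0.0163), again with 4 of 4 libraries lower. These tests called 23.9% of all genes for CLP against GMP and 28.9% for LMPP against GMP. Within batches the difference between CLP and GMP was -1.09 in batch 1 (adjusted p = 0.0110) and -2.92 in batch 2 (adjusted p = 0.0347). The difference between LMPP and GMP was -1.46 in batch 1 (adjusted p = 0.00402) and -1.68 in batch 2 (adjusted p = 0.137), so this call was not made in batch 2 alone. It was also lost without replicate 1 of LMPP batch 1 (adjusted p = 0.0504) and without replicate 2 of GMP batch 2 (adjusted p = 0.0529). LMPP and CLP did not differ past the threshold (0.43, SE 0.426, adjusted p = 0.548, with 10% of all genes called), and the sign turned in batch 1 alone (-0.37).

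Markers of monocytes moved with Csf1r in part of the libraries. The summed TPM of 12 monocyte and macrophage markers, among them Lyz2 and Cd68, was 1780.33 to 2109.22 in GMP, 273.72 to 3165.45 in LMPP and 117.23 to 2145.74 in CLP. Within LMPP the highest sum and the highest Csf1r (12.93 TPM) fell in the same haemoglobin-rich library. Within the CLP of batch 2, the haemoglobin-rich replicate 1 had a sum of 2145.74 and Csf1r at 8.07 TPM, and replicate 2 a sum of 366.22 and Csf1r at 1.53 TPM. Most of the sum in the haemoglobin-rich libraries was Lyz2, at 2921.29 TPM in LMPP and 1852.87 TPM in CLP. These libraries also held the highest sums of mature neutrophil markers. In GMP most of the sum was Ly6c2 (1170.95 to 1738.89 TPM), with Lyz2 at 302.67 to 577.65 TPM. The sums thus rest on different genes in different cell types. The macrophage gene C1qa was at most at 1.81 TPM in any library. Without the haemoglobin-rich pair Csf1r differed from GMP by -2.16 in CLP (adjusted p = 0.00832) and by -1.79 in LMPP (adjusted p = 0.0186), differences as large as with it. The pair lies in the cell types where Csf1r was lower, so leaving it out says nothing of monocyte RNA in GMP. The part of monocyte RNA in the differences was not tested. In bulk RNA, fewer cells of a type and less RNA per cell cannot be told apart.

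Pdgfrb, the beta receptor of platelet-derived growth factor, was present at a low level and was highest in LMPP. It stood at 7.99, 5.59, 4.50 and 9.36 TPM in LMPP, at 1.55, 1.56, 2.86 and 1.82 TPM in GMP, and in the CLP at 4.92 and 6.19 TPM (batch 1) but 0.54 and 0.08 TPM (batch 2). Every LMPP library lay above every GMP library. The CLP libraries of batch 1 lay above every GMP library, and those of batch 2 below every GMP library. The mean in LMPP (6.86 ± 2.21 TPM, SD, n = 4) was 3.52 times that in GMP (1.95 ± 0.621 TPM). The difference of 1.39 on the log2(TPM + 1) scale lay at the threshold (SE 0.489, adjusted p = 0.04998) and missed it under most of the alternatives tried, among them the removal of the haemoglobin-rich pair (adjusted p = 0.0739) and another scaling of the libraries (adjusted p = 0.0869). Within batches it was 1.59 in batch 1 (adjusted p = 0.00582) and 1.19 in batch 2 (adjusted p = 0.144). LMPP against CLP gave 1.39 over both batches (adjusted p = 0.0901), with 0.24 in batch 1 (adjusted p = 0.575) and 2.55 in batch 2 (adjusted p = 0.0302). CLP against GMP gave -0.00135 over both batches (adjusted p = 0.999), with 1.35 in batch 1 (adjusted p = 0.0104) and -1.36 in batch 2 (adjusted p = 0.103), opposite signs that cancel in the pooled value.

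Of the genes that mark stromal cells, in which Pdgfrb is best known, 4 were at or near 0. The collagen genes Col1a1 and Col3a1 reached at most 0.05 and 0.01 TPM in any library, Dcn was at 0 in 11 libraries and at 0.18 TPM in the other, and Pdpn was listed at 0 in all 12. Others reached levels like those of Pdgfrb in single libraries: Cxcl12 stood at 8.89 TPM in the haemoglobin-rich LMPP library and 3.96 TPM in the haemoglobin-rich CLP library, and Acta2 and Lepr reached 2.52 and 1.43 TPM. In those libraries Pdgfrb was at 4.50 and 0.54 TPM, the lowest of the LMPP and the second lowest of the CLP, and the part of stromal RNA in its level was not tested. Over 12 stromal and endothelial markers, LMPP summed to 46.4 to 89.08 TPM, CLP to 35.35 to 55.7 TPM, and GMP to 25.98 to 37.94 TPM. It was carried by Pecam1 (24.57 to 68.91 TPM) and in LMPP also by Emcn (7.79 to 19.7 TPM), which are endothelial genes also known from early blood progenitors.

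Pdgfra, the alpha receptor, was listed at 0 in 9 of the 12 libraries. The other values were 0.04 and 0.09 TPM in LMPP and 0.06 TPM in GMP. With so many zeros no exact permutation test of 4 libraries against 4 could pass the threshold (for LMPP against CLP the smallest two-sided p is 0.429), so the values are a description. With the depth unknown, no limit can be set on its level.

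The share of each receptor in the summed TPM of the 5 genes was taken in each library. For Flt3 and Kit it varied less within LMPP and within GMP than within CLP, where it changed most with the batch. In LMPP, Flt3 held 46.3% to 52.4% and Kit 40.2% to 48.2% of the sum. Both LMPP libraries of batch 2 had a higher Flt3 share and a lower Kit share than both of batch 1. In GMP, Kit held 62.6% to 71.8%, Csf1r 21.9% to 32.6% and Flt3 2.50% to 4.23%. Here too the batches did not overlap. Kit held 71.4% and 71.8% in batch 1 and 65.1% and 62.6% in batch 2, and Csf1r 22.3% and 21.9%, then 29.8% and 32.6%. In the CLP of batch 1, Flt3 held 80.5% to 84.0%, Kit 9.27% to 11.5% and Csf1r 3.74% to 4.57%. In those of batch 2, Kit held 61.2% to 71.5%, which overlapped GMP, Flt3 19.7% to 26% and Csf1r 2.34% to 17.9%. The sum itself was 202.3 to 307.65 TPM in LMPP, 164.61 to 181.52 TPM in the CLP of batch 1, 45.13 to 65.3 TPM in the CLP of batch 2 and 73.75 to 113.45 TPM in GMP. Since 2 of the genes are gates, these shares are a description.

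**Figure D2:**
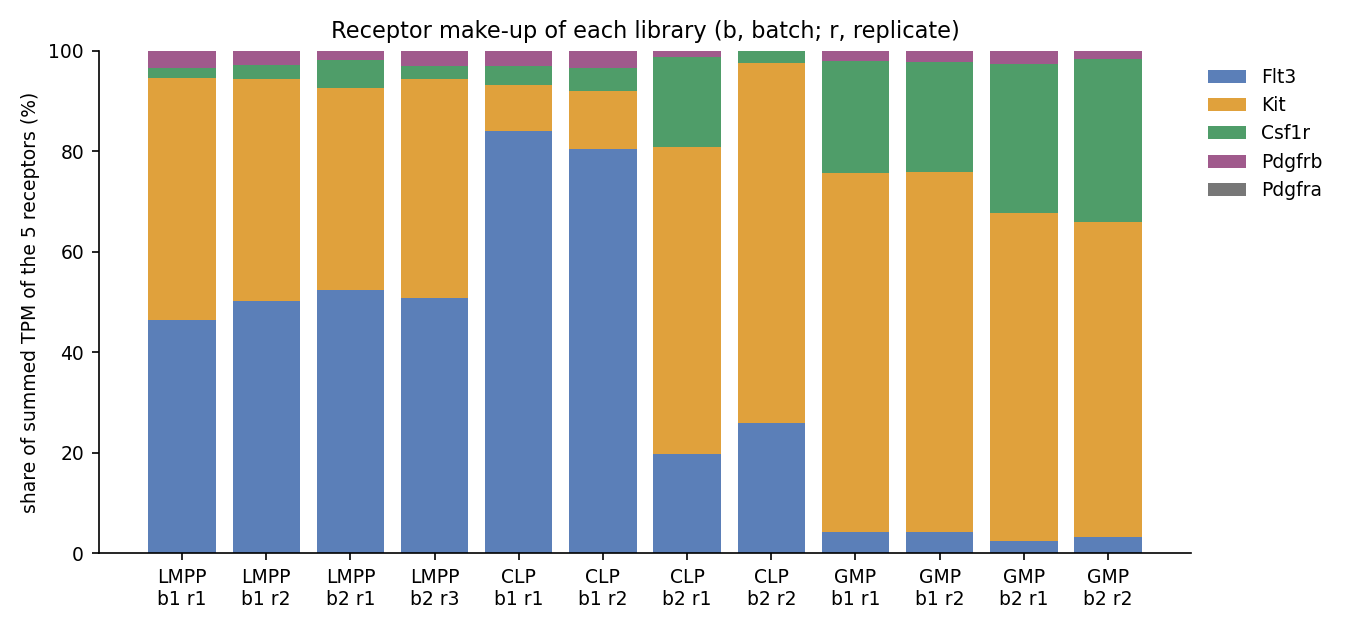
Share (%) of each receptor in the summed TPM of the 5 genes, 1 bar per library; b is the batch and r the replicate number of the label. LMPP divide between Flt3 and Kit, GMP between Kit and Csf1r, and the CLP bars change from mostly Flt3 in batch 1 to mostly Kit in batch 2.

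Both batches of CLP carry the same gate label. They were compared for all 4 receptors past the filter, with 2 libraries against 2 and a spread estimated over all 12 libraries. Flt3 and Kit are gate genes, and the labels do not say whether the gates were drawn alike in both batches. Flt3 differed by -3.42 on the log2(TPM + 1) scale between batch 2 and batch 1 (SE 0.259, adjusted p = 3.52e-05), an 11.0-fold lower mean TPM, with both libraries of batch 2 below both of batch 1. Pdgfrb fell with it, by 2.34 (SE 0.372, adjusted p = 0.00128). Kit went the other way and rose by 0.97 (SE 0.262, adjusted p = 0.0181), from a mean of 18.1 to one of 37.2 TPM. Csf1r did not pass (-0.77, SE 0.481, adjusted p = 0.250). The 2 CLP libraries of batch 2 differ in Csf1r, and without its haemoglobin-rich replicate 1 the difference was -1.69 (adjusted p = 0.00223), while without replicate 2 it was 0.15. This comparison called 32% of all genes, so that 3 of 4 receptors called stand against a high background. Pan3, the gene next to Flt3, held 227.98 and 230.78 TPM in batch 1 and spread from 97.22 to 231.35 TPM in batch 2.

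The calls for Flt3 and Pdgfrb were made under all 20 alternatives tried, with differences between -3.85 and -2.99 and between -4.05 and -2.08. The call for Kit was lost when libraries were scaled by the median ratio (adjusted p = 0.0560), when only the 4 CLP libraries were used (adjusted p = 0.121), and without replicate 1 of batch 1 (adjusted p = 0.119) or replicate 2 of batch 2 (adjusted p = 0.108). Batch, the placing of the sort gates and whatever else differed between these preparations cannot be told apart.

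The same contrast in the other cell types made no call for any of the 4 receptors. Flt3 differed between batches by 0.39 in LMPP (adjusted p = 0.428) and by 0.04 in GMP (adjusted p = 0.964), with 4.61% of all genes called in LMPP and 8.22% in GMP. Those shares also rest on single libraries, with 155 to 1185 genes in place of 586 in LMPP and 90 to 1678 in place of 1046 in GMP when 1 library was left out. Pdgfrb differed by -0.03 in LMPP (adjusted p = 0.976) and by 0.37 in GMP (adjusted p = 0.630). The largest of the receptor differences in these types was that of Csf1r in GMP, 1.06 (SE 0.481, adjusted p = 0.220), where the mean of batch 2 was 2.15 times that of batch 1. The difference between the batch effects was tested itself. For Flt3 it was -3.82 between CLP and LMPP (adjusted p = 0.00153) and -3.46 between CLP and GMP (adjusted p = 0.000913), and for Pdgfrb -2.31 (adjusted p = 0.0264) and -2.71 (adjusted p = 0.0198). Kit gave 0.81 (adjusted p = 0.201) and 0.54 (adjusted p = 0.436), and Csf1r -1.60 (adjusted p = 0.170) and -1.82 (adjusted p = 0.154). On the log2(TPM + 1) scale the GMP of batch 1 averaged 2.04 for Flt3 and 1.35 for Pdgfrb. Both levels were too low to fall as far as in CLP, which limits the test against GMP. LMPP were sorted as Flk2hi and CLP as Flk2+, so for Flt3 the gates bear on the test against LMPP. Over all genes 8.58% and 5.48% were called, shares that moved widely when 1 library was left out (263 to 2591 genes in place of 1091, and 187 to 2195 in place of 697); both tests share the 4 CLP libraries. For Flt3 both calls were made under all 19 alternatives, and those for Pdgfrb were each lost under 6, most of which left out 1 library. Without the haemoglobin-rich pair Csf1r was called in both tests (-2.21, adjusted p = 0.00438, and -2.74, adjusted p = 0.00143), as was Kit against GMP (0.91, adjusted p = 0.0471), and the difference of Csf1r between the batches of GMP was unchanged at 1.06 but called (adjusted p = 0.00975).

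**Figure D3:**
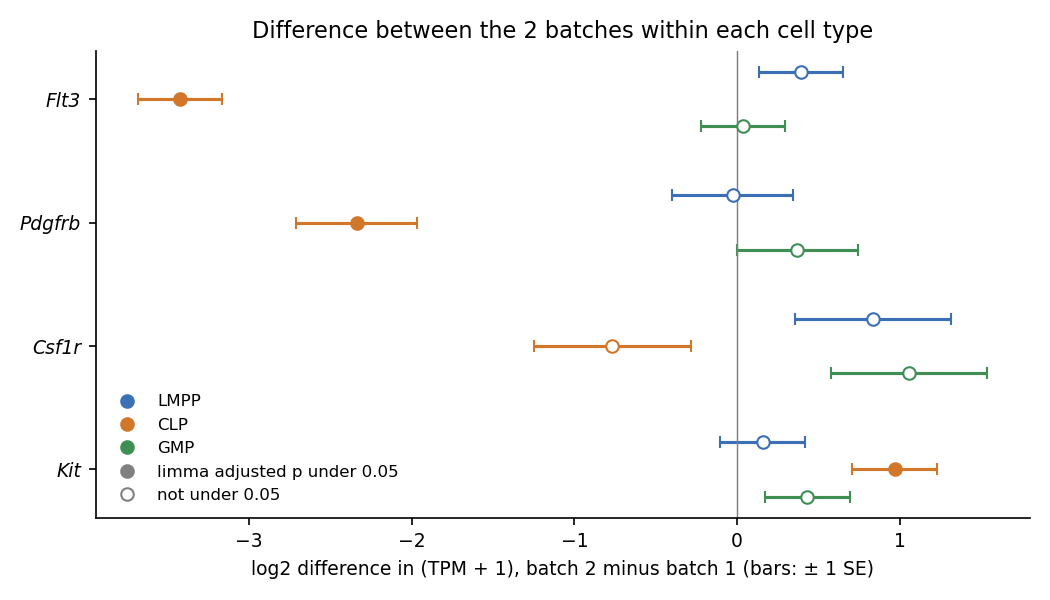
Difference between batch 2 and batch 1 on the log2(TPM + 1) scale for each receptor within each cell type; points are fitted differences, bars ± 1 SE, and filled points have a limma adjusted p under 0.05. The filled points are Flt3, Pdgfrb and Kit in CLP, at -3.42, -2.34 and 0.97.

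The CLP of batch 2 also held more B-lineage RNA. The summed TPM of 12 B-lineage markers was 1096.6 and 159.3 in the libraries of batch 1 and 4946.31 and 6231.51 in those of batch 2, against 43.92 to 138.5 in LMPP and 34.75 to 46.94 in GMP. Igll1, a surrogate light chain gene of early B cells, held 314.7 and 0.13 TPM (batch 1) and 2222.34 and 2677.42 TPM (batch 2). Flt3 was at 138.28 and 146.13 TPM in the libraries of batch 1, whose B-lineage sums differed and both lay below those of batch 2. The part of B-lineage cells in the batch difference was not tested. Genes of other lineages moved as well. Of 12 dendritic cell markers, Siglech held 70.18 and 26.51 TPM (batch 1) and 5.49 and 1.02 TPM (batch 2), Irf8 156.51 and 97.7 TPM, then 32.04 and 23.93 TPM, and Ccr9 13.16 and 7.88 TPM, then 2.91 and 1.9 TPM, all lower in batch 2. The class II genes H2-Aa, H2-Ab1 and Cd74 were higher in batch 2, and the sum over the list overlapped, at 420.12 and 286.39 TPM against 371.86 and 258.1 TPM. The sum over 8 stem cell markers was 65.17 and 85.57 TPM in batch 1, above the 37.46 and 10.83 TPM of batch 2. These genes were picked after their values were seen, and their part in the difference of Flt3 was not tested either. PAX5, the factor that fixes B-cell identity, is known as a repressor of Flt3. The Pax5 transcript held 35.6 and 0.81 TPM (batch 1) and 158.32 and 167.54 TPM (batch 2), and its part in the difference of Flt3 was not tested.

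Genes around the receptors were taken from lists of ligands, relays, brakes and transcription factors, 83 genes in all. Of these 82 were matched (Flt3l, the FLT3 ligand, was not) and 67 passed the filter: 30 relays, 19 brakes, 17 transcription factors and 1 ligand. The ligands were scarcely expressed in these progenitors. Csf1 lay between 0.42 and 4.53 TPM, and Kitl (stem cell factor) and Il34 reached at most 0.65 and 0.12 TPM. The related kinase genes Kdr and Flt4 reached at most 0.27 and 0.42 TPM, and Flt1 lay at 0.87 to 1.85 TPM in GMP and at most at 0.38 TPM in the other libraries. None of the 3 passed the filter.

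Between LMPP and GMP, 27 of the 67 genes were called, 23 higher and 4 lower in LMPP, with a median difference of 0.35 against 0.24 over all genes tested and 28.9% of all genes called. All 10 brakes called were higher in LMPP, among them Dusp6, a phosphatase of ERK (1.11, adjusted p = 0.00650), and Spred1 (0.95, adjusted p = 0.00351). Of 9 relays called 8 were higher in LMPP, led by the kinase gene Fyn (1.92, adjusted p = 0.000307), Plcg1 (1.47, adjusted p = 0.000734) and Pik3ca (0.64, adjusted p = 0.0322), and Hras was lower (-0.63, adjusted p = 0.0436). Among transcription factors, 5 were higher in LMPP, with Meis1 at 3.00 (adjusted p = 0.000798), its partner Hoxa9 at 2.25 (adjusted p = 0.00522) and Lmo2 at 1.42 (adjusted p = 0.00165). Another 3 were lower: Cebpa, a driver of the granulocyte and monocyte fate (-1.50, adjusted p = 0.0167), Spi1, which encodes PU.1, known to bind the Csf1r and Flt3 genes (-0.97, adjusted p = 0.0113), and Myb (-0.50, adjusted p = 0.00892). Scaling by the median ratio shifted the median difference over all genes from 0.24 to 0.00, and with it the split of the list was 12 higher and 8 lower and that of all genes 1658 and 1943, against 2707 and 969 in the main fit. In batch 2 alone 9 of the 67 were called, and the calls of Hras and Pik3ca were lost under 16 and 12 of 26 alternatives.

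Between CLP and GMP, 27 of the 67 were called as well, 18 higher and 9 lower in CLP, with a median of 0.18 against 0.09 over all genes and 23.9% of all genes called. The 2 comparisons with GMP share the 4 GMP libraries. Brakes were again mostly higher in CLP (10 of 11 called), with Socs2, a STAT5 target that dampens cytokine receptors, at a mean of 21.8 TPM against 0.13 TPM (4.25, adjusted p = 3.64e-06), and Inpp5d, which encodes the SHIP1 phosphatase, at 60.4 against 23.9 TPM (1.26, adjusted p = 0.000104), followed by Dusp6 (1.19, adjusted p = 0.00505). Sla, a SRC-like adaptor, was the brake lower in CLP (-0.90, adjusted p = 0.00167). Of the 6 relays called 5 were higher, led by Fyn (2.44, adjusted p = 5.81e-05) and Plcg1 (1.88, adjusted p = 0.000146). Of the 10 transcription factors called 7 were lower in CLP. These included Cebpa at a mean of 2.26 TPM against 28.8 TPM in GMP (-3.42, adjusted p = 0.000128), Gata2 (-2.68, adjusted p = 0.000398) and Spi1 at 26.3 against 77.2 TPM (-1.61, adjusted p = 0.000568). The B-cell factors Ebf1 (5.54, adjusted p = 0.000670) and Pax5 (4.65, adjusted p = 0.00535) and the lymphoid factor Ikzf1 (1.22, adjusted p = 0.000597) were the 3 higher. In CLP, mean Ebf1 was 23.7 TPM in batch 1 and 255.1 TPM in batch 2, and mean Pax5 18.2 and 162.9 TPM. The call of Pax5 was lost in batch 1 alone and without the CLP libraries of batch 2. Median-ratio scaling gave 18 higher and 14 lower in the list and 1479 and 1757 over all genes, where the main fit gave 1773 and 1267. In batch 2 alone 15 of the 67 were called.

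Between LMPP and CLP, 13 of the 67 were called, 7 higher and 6 lower in LMPP, with 10% of all genes called. Most were transcription factors. Lmo2, a partner of stem cell factors, was at a mean of 329.2 TPM in LMPP and 51.5 TPM in CLP (2.71, adjusted p = 0.000122), and Meis1 (2.68, adjusted p = 0.00549) and Gata2 (2.37, adjusted p = 0.00338) were also higher in LMPP. Ebf1 (-4.43, adjusted p = 0.00870) and Pax5 (-4.10, adjusted p = 0.0249) were lower. Among brakes, Socs2 was lower in LMPP (-3.20, adjusted p = 0.000170), as were Inpp5d (-0.61, adjusted p = 0.0231) and Sh2b3, the LNK adaptor (-0.55, adjusted p = 0.0314), while Sla (0.83, adjusted p = 0.00854) and Spry2 (0.80, adjusted p = 0.0437) were higher. Pik3cd, the PI3K subunit of blood cells, was the relay called (-1.02, adjusted p = 0.00308). Calls were lost under 20 of 26 alternatives for Spry2, 17 for Sh2b3, 12 for Pax5 and 9 for Inpp5d. Without the CLP libraries of batch 1, 22 of the 67 were called. Median-ratio scaling, under which the median over all genes went from 0.17 to 0.02, gave 6 higher and 7 lower in the list and 544 and 605 over all genes, against 920 and 356 in the main fit.

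**Figure D4:**
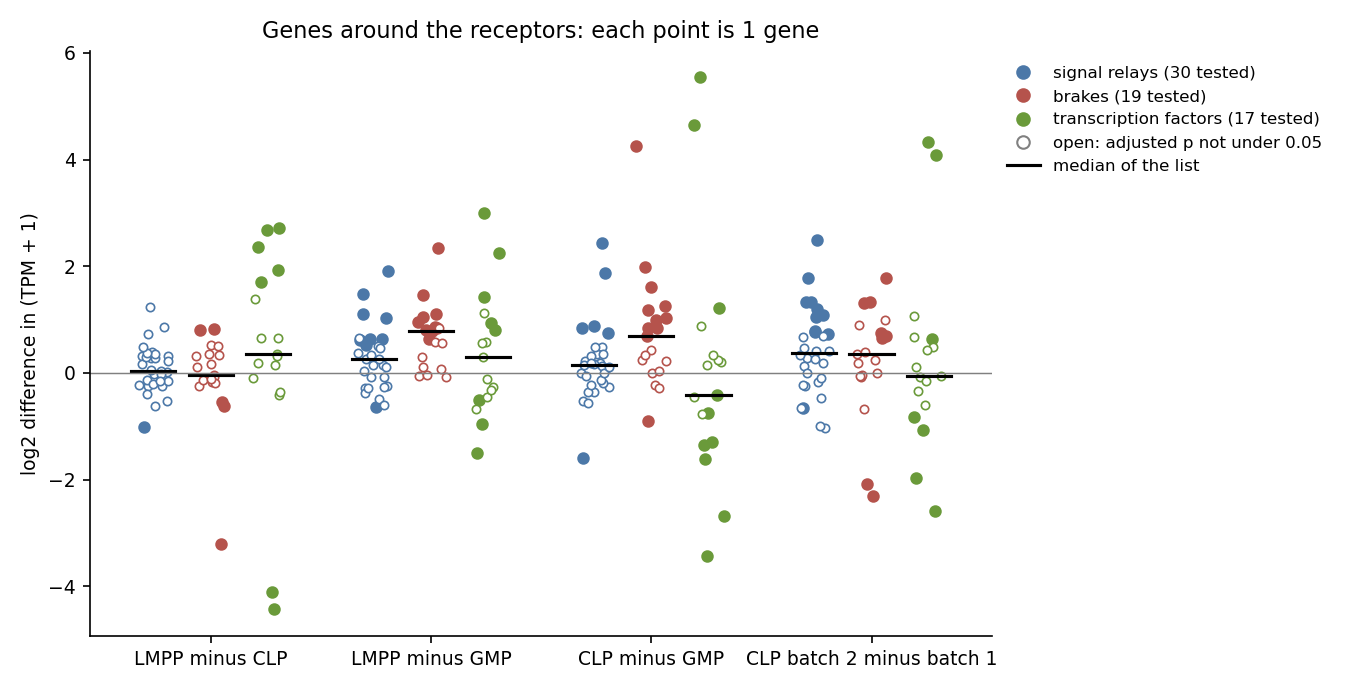
Differences on the log2(TPM + 1) scale of the tested relays, brakes and transcription factors in 4 comparisons; each point is a gene, filled where its adjusted p is under 0.05, and black lines are list medians. The filled brakes of LMPP minus GMP lie above 0, and the transcription factors spread in both directions in every comparison.

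Between the CLP batches, 27 of the 67 were called, 20 higher and 7 lower in batch 2, with a median of 0.34 against 0.13 over all genes and 32% of all genes called. Relays made up 10 of those higher, among them Gab2, a docking protein below KIT (2.48, adjusted p = 0.000495), and Akt2 (1.33, adjusted p = 0.00665), and Akt1 was lower (-0.65, adjusted p = 0.0298). The brakes of RAS signalling Nf1 (1.78, adjusted p = 0.00472), Dusp6 (1.33, adjusted p = 0.00104) and Spred2 (1.31, adjusted p = 0.00842) were higher, and the adaptor gene Dok2 was lower (-2.31, adjusted p = 0.000268). The ligand gene Csf1 was higher too, at a mean of 2.58 against 0.625 TPM (1.14, adjusted p = 0.0161). Hoxa9, at 13.68 and 32.87 TPM in batch 1 and 3.13 and 2.29 TPM in batch 2, was lower (-2.60, adjusted p = 0.00122). So were Meis1 (-1.98, adjusted p = 0.00110) and Spi1 (-1.06, adjusted p = 0.0190). All are factors known to act on the Flt3 gene, and their part in its batch difference was not tested. Ebf1 (4.09, adjusted p = 0.00401), Pax5 (4.33, adjusted p = 0.0115) and Fli1 (0.64, adjusted p = 0.0346) were higher. The calls of Fli1, Akt1 and Spi1 were lost under 11, 6 and 3 of 20 alternatives. With median-ratio scaling the list split into 14 higher and 10 lower, and all genes into 2025 and 1876 in place of 2711 and 1362, as their median went from 0.13 to -0.03. The count in the list was 8 with the 4 CLP libraries alone and 12 without replicate 2 of batch 1.

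**Figure D5:**
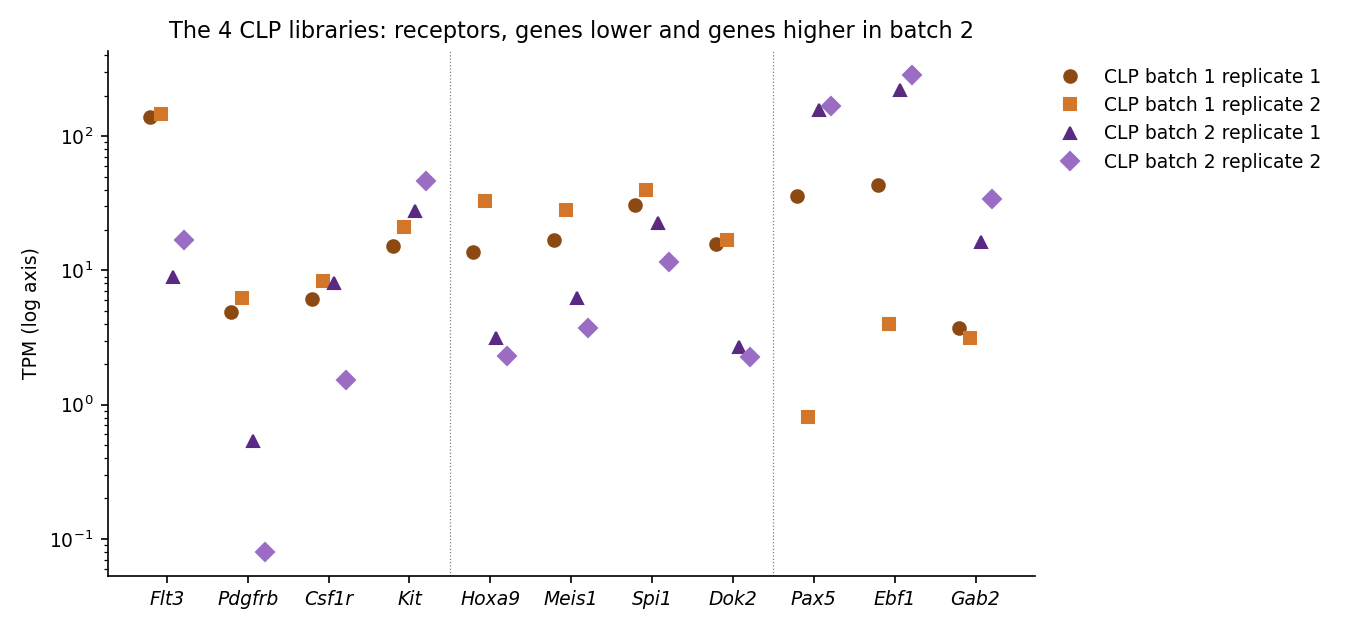
TPM on a log axis of the receptors, of 4 list genes lower and of 3 list genes higher in batch 2, in each of the 4 CLP libraries (a marker shape per library). In batch 1, Flt3 is at 138.28 and 146.13 TPM and Pax5 at 35.6 and 0.81 TPM; whether the genes are linked was not tested.

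The receptors differed in how they varied over the 12 libraries, which share cell types and batches, so correlations are a description. Flt3 and Pdgfrb had a Pearson correlation of 0.73 on the log2(TPM + 1) scale, Flt3 and Kit one of 0.02, and Flt3 and Csf1r one of -0.57. Kit and Csf1r had one of 0.17. By correlation with Flt3, Pdgfrb ranked only 1153 among the 12717 other tested genes. Among 6773 tested genes averaging 10 TPM or more, those most like Flt3 were Tsc22d1 (0.989), Gpr171 (0.978), a gene listed without a symbol as ENSMUSG00000089944 (0.977), Il18rap (0.976) and H2-Q7 (0.976), the last a member of a family of near-identical genes whose reads may be split. Tsc22d1 lay at 58.05 to 78.86 TPM in LMPP, 72.9 to 76.84 TPM in the CLP of batch 1, 17.26 to 18.97 TPM in those of batch 2 and 9.51 to 13.27 TPM in GMP. Those most like Kit were Bin2 (0.955), Vav3 (0.954), Erlin2 (0.914), Cdadc1 (0.887) and Uap1 (0.887). Those most like Csf1r were Sort1 (0.971), Cers6 (0.959), Arpc1b (0.958), Fuca2 (0.957) and Pcyt1a (0.957).

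Members that are neighbours in the genome did not share a pattern of levels. Pdgfrb (chr18:61045150-61085061) and Csf1r (chr18:61100598-61132149) lie 15.5 kb apart on the same strand, and their correlation over the 12 libraries was 0.02. Pdgfrb was highest in LMPP and Csf1r in GMP. Pdgfra and Kit lie 376.7 kb apart on the same strand, with Pdgfra near 0 where Kit reached 134.20 TPM. Kdr follows Kit after 276.1 kb and stood at most at 0.27 TPM. Hmgxb3, on the other strand, overlaps the end of Csf1r by 0.873 kb and reached at most 4.72 TPM, and without strand in the counting, reads in the overlap cannot be told apart. Urad beside Flt3, Gsx2 beside Pdgfra and Cdx1 beside Pdgfrb were listed at 0 in all 12 libraries.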

How the data were processed

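Bulk RNA-seq of 12 libraries was used. The authors' deposited table holds TPM per gene ID; the submitters' processing notes name Bowtie2 2.2.0, RSEM 1.2.12, edgeR 3.10.0 and mm10, with no roles or settings, and the labels do not say whether strand was counted. The table also has 17 columns that match no sample used here and were not read. Gene symbols were taken by ID for 37607 of 38924 IDs.

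The test covered 12718 genes reaching 1 TPM in 4 or more libraries, using limma 3.58.1 (R 4.3.3) on log2(TPM + 1), a scale that understates changes of low genes. Cell types were compared with batch as a covariate; the batches within a type and their interactions were compared over 6 means of type by batch. Variances were moderated with a trend, tests were two-sided, p-values were adjusted by Benjamini-Hochberg over all tested genes, and genes under 0.05 were called. The code was tested on simulated data. TPM keeps no depth, so no counting interval can be given. Tables were handled with Python 3.11.15.

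The members and gene lists were chosen with earlier results of these data known. Named list genes are up to 3 called per direction, list and comparison with the largest difference and 10 TPM or more on average in the higher group; similar genes are the 5 of highest Pearson correlation. Other genes (gates, markers, neighbours, Csf1) are given as values; some genes that the rule names are not reported here. Alternatives covered the pseudocount, filter, scaling, variance, batch term, pairing by number, single batches and left-out libraries.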

Additional observations from a re-analysis of the deposited data

Results flagged for a closer look

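The batch difference of 2 receptors in CLP was tested against that in the other cell types and differed from both. For Flt3 the CLP difference departed from that of LMPP by -3.82 on the log2(TPM + 1) scale (limma, adjusted p = 0.00153) and from that of GMP by -3.46 (adjusted p = 0.000913). For Pdgfrb the values were -2.31 (adjusted p = 0.0264) and -2.71 (adjusted p = 0.0198). The calls for Pdgfrb were lost under 6 of 19 alternatives in each test and those for Flt3 under 0. Both libraries of CLP batch 2 lay below both of batch 1 for each gene. Flt3 is a gate gene, and the labels do not say whether its gate was drawn alike in both batches. In the GMP of batch 1 both genes were too low to fall as far as in CLP, which limits the test against GMP. Pdgfra in replicate 2 of GMP batch 1, at 0.06 TPM, stood far from the other 3 GMP libraries, which were listed at 0. Among 14 groups of 4 libraries checked this way it was the one found. Chance alone finds about 1 group in 20. The other 3 values of this group are tied at 0 and have no spread, so that rate may not hold for it. The value is a description.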

How the results depend on the processing

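Values are differences on the log2(TPM + 1) scale with limma adjusted p-values, and alternatives added after the data were seen are those without the CLP libraries of batch 1, those for the batch differences of LMPP and GMP and for the interactions, and, for the CLP batches, the removal of the haemoglobin-rich pair and the list counts. Where 1 library of a type and batch is left, it is assumed to vary like the others. Csf1r in CLP against GMP kept its call under all 26 alternatives (-2.92 to -1.09, adjusted p 0.00103 to 0.0347), as did Flt3 and Pdgfrb between the CLP batches under all 20. No depth is known, so low values such as those of Pdgfrb have no counting error.

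For LMPP against CLP, Csf1r changed sign without the CLP of batch 2 (-0.42), in batch 1 alone (-0.37) and over left-out libraries (-0.13 to 0.72). Pdgfrb there was called without the CLP of batch 1 (2.65), in batch 2 alone (2.55) and without 1 library (range 0.98 to 1.76, called at 1.76 without replicate 2 of CLP batch 1). Flt3 changed sign without the CLP of batch 2 (-0.33) and in batch 1 alone (-0.42). List genes called went from 13 to 22 without the CLP of batch 1, with 9 to 15 when 1 library was left out.

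For LMPP against GMP, the Csf1r call was lost in batch 2 alone (-1.68) and within the left-out range (-1.77 to -1.42). That of Pdgfrb was lost with a pseudocount of 0.1 (1.75), no filter, a filter at 5 TPM, no variance trend or no batch term (1.39 each), median-ratio scaling (1.17), without the haemoglobin-rich pair (1.47), in batch 2 alone (1.19) and in the left-out range (1.10 to 1.67). List genes called were 17 without the batch term and 9 in batch 2 alone, against 27, with 20 to 33 when 1 library was left out. For CLP against GMP, Pdgfrb turned positive without the CLP of batch 2 (1.25), without the haemoglobin-rich pair (0.23) and in batch 1 alone (1.35), was called at -1.26 without the CLP of batch 1, and ranged from -0.37 to 0.41 over left-out libraries, positive without either CLP library of batch 2 (0.22 and 0.41) or either GMP library of batch 2 (0.28 and 0.11). List genes called were 15 in batch 2 alone.

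Between the CLP batches, Kit was lost with median-ratio scaling (0.78) and the 4 CLP libraries alone (0.97), and ranged from 0.60 to 1.34 over left-out libraries. Csf1r was called without the haemoglobin-rich pair (-1.69), with a left-out range of -1.69 to 0.15. List genes called fell to 8 with the 4 CLP libraries alone and ranged from 12 to 36. In the interaction with LMPP, Csf1r was called without the haemoglobin-rich pair (-2.21, left-out range -2.52 to -0.68), Pdgfrb was lost with no filter (-2.31, left-out range -2.77 to -1.85) and Kit ranged from 0.44 to 1.18, called without replicate 1 of CLP batch 2. In that with GMP, Csf1r (-2.74, left-out range -2.74 to -0.90) and Kit (0.91) were called without the pair, and Pdgfrb was lost with no filter (-2.71, left-out range -2.96 to -2.45). Within LMPP, Kit turned negative without replicate 2 of batch 1 (-0.021) or replicate 3 of batch 2 (-0.091), over a range of -0.091 to 0.40, and Pdgfrb turned positive without mitochondrial and ribosomal RNA (0.13), without replicate 1 of batch 1 (0.20), without replicate 1 of batch 2 (0.43) and without the pair (0.43), over a left-out range of -0.48 to 0.43. Within GMP, Flt3 turned negative with median-ratio scaling (-0.19) and without replicate 2 of batch 2 (-0.11, left-out range -0.11 to 0.19). Beyond the construction of each alternative the cause was not tested.

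The replicate numbers of the labels were tried as a block. Same-numbered libraries of a batch deviated with correlations of -0.106 to 0.169, so the numbers did not pair them. With the block, Csf1r was -1.73 in LMPP against GMP (adjusted p = 0.0368), -2.0 in CLP against GMP (adjusted p = 0.0110) and 0.28 in LMPP against CLP, and Pdgfrb in LMPP against GMP was 1.0 (adjusted p = 0.242). The block gave 5, 19 and 25 list genes and 212, 2214 and 2580 of all genes for LMPP against CLP, LMPP against GMP and CLP against GMP, against 1276, 3676 and 3040 of all genes without it. Among the type comparisons and the CLP batches, other counts over all genes that moved by over 1.5 times were, for LMPP against CLP, 609 without the batch term, 536 with only the types compared, 660 to 818 without 1 of 3 LMPP libraries (replicate 1 of batch 1, replicates 1 and 3 of batch 2) and 2793 without the CLP of batch 1. For LMPP against GMP they were 2358 without the batch term and 1126 in batch 2 alone, for CLP against GMP 1944 and 1684 in the same order, and for the CLP batches 1631 with CLP alone and 2257 without replicate 2 of batch 1. For the batches of LMPP, the count of 586 was 903 without mitochondrial and ribosomal RNA, 267 without the variance trend, 1332 without the haemoglobin-rich pair and 155 to 1185 when 1 library was left out. For those of GMP, 1046 became 573 with median-ratio scaling, 417 without the trend, 2262 without the pair and 90 to 1678 over left-out libraries. The interaction with LMPP went from 1091 to 717 without the trend, 3275 without the pair and 263 to 2591, and that with GMP from 697 to 2891 without the pair and 187 to 2195.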
